A study of Prunus persica with 4 samples.

Results

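Peach (Prunus persica) has 186 miRNA candidates in the deposited table, and 21 of them, 11 with a main sequence of 20 nt and 10 with one of 22 nt, are described here. The main sequence is the arm of the hairpin with more reads, 5p or 3p. The members were chosen by measured values: the read counts that set the main arm, the length of that arm, and how many rows listed the sequence (fewer than 4). A further 38 candidate numbers were excluded by name. Their counts and lengths are therefore a description with no test. All values come from 1 small RNA library, for which flower buds, young stems and young leaves from untreated trees of the cultivar Lovell were combined. The tissues were pooled, so no value belongs to 1 tissue, and there was no replicate, so no value has a replicate error. The table held 15705 reads on all precursors, and the precursors of the 21 members held 1042 of them (6.63%). No arms were tied, so the rule set the main arm of every candidate. The 21 members carried 19 distinct main sequences.

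Plant miRNAs are cut from a hairpin precursor by the nuclease DICER-LIKE1, in 2 steps that leave a short duplex with overhanging 3′ ends. One strand of the duplex, the miRNA, is loaded into an ARGONAUTE protein and guides it to matching mRNAs, and the other, the miRNA*, is mostly lost. The length and the first base of the strand are known to matter in plants: ARGONAUTE1 favours a 5′ uracil, and some 22-nt miRNAs trigger the production of secondary small interfering RNAs from the mRNAs they cut. A 22-nt strand often comes from a duplex whose other strand is shorter, because unpaired bases lengthen 1 side. What follows gives the sequences, the reads, the first bases, the pairing and the relatives of the 20-nt and 22-nt candidates.

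The 20-nt sequences printed here are those with 30 or more reads, those with reads on both arms or a relative among the conserved miRNAs, and those with the lowest or highest folding free energy at their length. They are written 5′ to 3′ in the DNA letters of the table, and capitals mark the seed, bases 2 to 8.
miRC49 (5p, 410 reads): gCAGCATCaccaagattcac
miRC24 (3p, 203 reads): aGGGGAAGgtagctagcatt
miRC184 (3p, 52 reads): aGAGTGCTgctaaatgaacc
miRC171 (3p, 9 reads): cACAACACggatgttaggac
miRC135 (5p, 6 reads): tAGCCAAGgatgacttgcct
miRC135 (3p, 2 reads): gCAAGTTGtctttaggctagt
The 3 most abundant started with G or A, and none of these 5 candidates shared its seed with another member.

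The 22-nt sequences were picked in the same way, and sequences found at 2 loci were added to them. Capitals again mark the seed.
miRC129 (5p, 146 reads): tTTCCAAGagatatagaggccg
miRC15 (3p, 34 reads): tTGCCTATtcctcccatgccaa
miRC15 (5p, 1 read): gGCCATGGgaagtttggcaaga
miRC20 (3p, 21 reads): aGGGATGTagctcaaaatggta
miRC185 (5p, 21 reads): tAGTGAAGtttgaattagggct
miRC80 and miRC95 (5p, 11 reads at each): tGATATTGgcacggctcaatca
miRC150 and miRC154 (5p, 11 reads at each): tCTAATAGagtctgggacccat
miRC137 (5p, 8 reads): tGGAGGCAgcggttcatcgatc
All main sequences in this set but that of miRC20 started with T, which is uracil in the RNA. The only seeds shared within the 21 members were those of the 2 pairs of loci with the same sequence.

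Reads were concentrated on a few members. The 20-nt main sequences had 741 reads in all, and the 22-nt main sequences had 284 reads. miRC49 alone held 55.3% of the 20-nt reads (95% Wilson interval 51.7 to 58.9%) and miRC24 held 27.4% (interval 24.3 to 30.7%). miRC129 held 51.4% of the 22-nt reads (interval 45.6 to 57.2%). These intervals treat each read as an independent molecule and leave out error between libraries, since there was no replicate. Reads of an amplified library are not independent molecules, so the intervals may be too narrow even for counting error. This applies to every interval of a share of reads given here. Without miRC49 the 20-nt total was 331 reads, and without miRC129 the 22-nt total was 138 reads. The median member had 10 reads at 20 nt and 11 reads at 22 nt, against 12 reads over all 186 candidates. The 95% intervals of the first 2 medians were 6 to 203 and 10 to 34 reads. Counts were used in choosing the members, so these medians are a description and cannot compare the lengths.

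The other 20-nt members were low in reads. miRC66 had 20 reads, miRC92 had 11, miRC152 had 10, miRC52 had 8, miRC8 had 7 and miRC36 had 5, the fewest that any precursor of the table held. At 22 nt the only member not listed above was miRC29, with 10 reads. For each of the 2 sequences that were listed at a pair of loci, the count was the same at both, 11 reads, and the same reads may have been counted at each. With each distinct sequence counted once, the 22-nt total was 262 reads.

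The main sequences and the listed other arms did not account for every read on the precursors. At 20 nt, 10 reads on 4 precursors fell elsewhere, 7 of them on miRC24. At 22 nt, 4 reads on 4 precursors did so, 1 each on miRC129, miRC15, miRC150 and miRC154. On 13 of the 21 precursors (61.9%, interval 40.9 to 79.2%) every read was assigned to a listed sequence. Over all candidates this was so for 95 of 186 (51.1%, interval 43.9 to 58.2%), and the intervals overlapped.

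The rule set the edges of both classes. Among the 25 candidates of 20 nt, 2 were excluded by number and 12 carried a sequence repeated in 5 or 7 rows. Just outside at 20 nt stood miRC57 with 1876 reads, the repeated sequences with 7 to 10 reads, and miRC35 with 5 reads. Among the 16 candidates of 22 nt, 6 were excluded by number: miRC162 with 1035 reads, the sequence of miRC26, miRC130 and miRC172 with 532 reads at each, miRC14 with 92 reads and miRC177 with 22 reads. Just inside stood miRC49 at 20 nt and miRC129 at 22 nt. The upper ends of both classes were thus cut by the exclusions, and the totals above describe the members, not the length classes of the library.

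The first base differed in its make-up between the lengths. Uracil was first in 3 of 11 members of 20 nt (27.3%, interval 9.75 to 56.6%): miRC66, miRC92 and miRC135. It was first in 9 of 10 members of 22 nt (90.0%, interval 59.6 to 98.2%), the exception being miRC20 with adenine. Over all 186 candidates it was first in 75 (40.3%, interval 33.5 to 47.5%). The interval of the 22-nt members lay above those of the 20-nt members and of all candidates. At 20 nt adenine led in 5 members, guanine in 2 and cytosine in 1. Members are not replicates, and the pairs with the same sequence share their first base: with each distinct sequence once, uracil was first in 7 of 8 at 22 nt (87.5%, interval 52.9 to 97.8%), and this interval overlapped with that of the 20-nt members. In the 6 other candidates of 22 nt uracil was first in 3 (50%, interval 18.8 to 81.2%), which overlapped with the members of 22 nt.

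Weighted by reads the lengths stood further apart. Only 37 of 741 reads at 20 nt were on sequences starting with uracil (4.99%, interval 3.64 to 6.81%), since miRC49 starts with guanine and miRC24 with adenine. Guanine was first for 56.4% of those reads. At 22 nt, 263 of 284 reads were on sequences starting with uracil (92.6%, interval 89.0 to 95.1%). The exclusions shaped these shares. Of the excluded 22-nt candidates, miRC162 with 1035 reads and miRC177 with 22 reads start with cytosine, and miRC14 with 92 reads with guanine. The sequence of miRC26, miRC130 and miRC172, with 532 reads at each, starts with uracil. At 20 nt the excluded miRC57, with 1876 reads, starts with guanine. With the excluded candidates put back, uracil was first in 10 of 25 candidates of 20 nt (40.0%, interval 23.4 to 59.3%) and in 12 of 16 of 22 nt (75.0%, interval 50.5 to 89.8%), and these intervals overlapped.

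The main sequence was on the 5p arm in 3 of 11 members of 20 nt (27.3%, interval 9.75 to 56.6%) and in 7 of 10 members of 22 nt (70.0%, interval 39.7 to 89.2%), against 97 of 186 candidates (52.2%). The intervals of the members overlapped, and the share of all candidates lay within both. In all 21 members exactly 10 bases lay outside the main sequence, between it and the nearer end of the precursor, as in 180 of the 186 candidates. The precursor ends were therefore set by the main sequence and are not measured ends of a transcript.

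Hairpin sizes ranged widely at both lengths. Precursors had a median of 159 nt at 20 nt (range 83 to 311 nt) and 102 nt at 22 nt (range 71 to 353 nt), against 122.5 nt over all candidates. Precursors over 200 nt numbered 5 of 11 at 20 nt (miRC24, miRC184, miRC152, miRC52 and miRC36), 1 of 10 at 22 nt (miRC20) and 43 of all 186. The 95% intervals of the medians, 100 to 263 nt and 71 to 144 nt, overlapped.

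The folding free energy of a hairpin says how much energy pairing releases, and it is given here as its size, so that a larger value is a more stable fold. The deposited energies had a median of 53.1 kcal/mol at 20 nt and 46.4 kcal/mol at 22 nt, against 47.4 kcal/mol over all candidates. Divided by length the order turned, with medians of 23.8 kcal/mol per 100 nt at 20 nt (interval 20.3 to 50.7) and 39.2 kcal/mol per 100 nt at 22 nt (interval 31.9 to 67.7), against 36.8 over all candidates. The intervals overlapped on both scales. At 20 nt the smallest energy was 18.33 kcal/mol in miRC171, whose hairpin of 102 nt on scaffold 7 (9733058 to 9733159, minus strand) had the smallest value of the table. The largest at 20 nt was 133.44 kcal/mol in miRC24, a hairpin of 263 nt on scaffold 1 (45631805 to 45632067, plus strand) with a longest helix of 22 base pairs. At 22 nt the smallest was 38 kcal/mol in miRC185 and the largest 78.36 kcal/mol in miRC20. miRC20 was the long one, with 353 nt and only 22.2 kcal/mol per 100 nt, while miRC185 had 81 nt and 46.9 kcal/mol per 100 nt.

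Per length, miRC150 and miRC154 formed the tightest hairpins of the members, with 67.7 and 72.7 kcal/mol per 100 nt. Each had 71 nt and a helix of 20 base pairs. miRC66 had 59.96 kcal/mol per 100 nt, no unpaired base in its main sequence and a helix of 26 base pairs. At the other end, miRC171, miRC36, miRC184, miRC152, miRC8 and miRC52 of 20 nt and miRC20 of 22 nt had between 17.97 and 23.8 kcal/mol per 100 nt. The 20-nt members thus spanned loose and tight hairpins, and 7 of 11 folded into a structure with 1 hairpin loop, as did 7 of 10 at 22 nt and 113 of 186 candidates. miRC36 had 6 hairpin loops and miRC152 had 4.

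Base composition varied as well. The GC content of the main sequence had a median of 45% at 20 nt and 45.5% at 22 nt, against 43.5% over all candidates. The extremes were both at 20 nt, with 75.0% in miRC52 and 25.0% in miRC8. The value of miRC8 was the lowest of the whole table. The highest value, 75.0%, was also reached at 20 nt outside the members.

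Most bases of the main sequences were paired at both lengths. In the deposited structures a median of 2 bases of the main sequence were unpaired at 20 nt (interval 1 to 4) and 4 bases at 22 nt (interval 3 to 5), against 3 over all candidates. At most 4 bases were unpaired in all 11 members of 20 nt, in 7 of 10 of 22 nt and in 167 of 186 candidates, and miRC15, miRC20 and miRC95 had 5. The 14 other candidates of 20 nt had a median of 3 (interval 1 to 3). The 6 other candidates of 22 nt had a median of 2 (interval 0 to 4). The intervals of the members' medians overlapped with each other and with those of the other candidates of their length.

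In the 22-nt members the most often unpaired bases were 11 and 10, with others spread over the sequence. Base 10 was unpaired in 5 of them and base 11 in 7, whereas none had base 2, 4, 13, 14, 18, 19 or 20 unpaired. At least 1 of bases 10 and 11 was unpaired in 9 of 10 members of 22 nt (90.0%, interval 59.6 to 98.2%), the exception being miRC29, where bases 8 and 9 were unpaired. This held in 2 of 11 members of 20 nt (18.2%, interval 5.14 to 47.7%), miRC49 at base 10 and miRC135 at base 11, and in 46 of 186 candidates (24.7%, interval 19.1 to 31.4%). The 6 other candidates of 22 nt included 1 (16.7%, interval 3.01 to 56.4%). The interval of the 22-nt members lay above those of all of these groups. It overlapped with that of the 14 other candidates of 20 nt, of which 7 had such a base (50%, interval 26.8 to 73.2%). With each distinct sequence once, 7 of 8 had such a base (interval 52.9 to 97.8%), and in structures predicted with RNAfold 8 of 10 did (interval 49.0 to 94.3%); these intervals overlapped with that of the 6 other candidates of 22 nt. The position was singled out after the structures had been seen, so it is a description of these hairpins.

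The main sequence lies in the hairpin opposite a second stretch, the likely miRNA*, which was read from the structure as the stretch that leaves 2 unpaired bases at each 3′ end. Where a second arm was listed, in 46 candidates, this stretch was the listed sequence in 42. Only the deposited structure was used for it. RNAfold gave the same structure for 7 of 21 members, and the stretch was not read again from its folds. In 6 of 10 members of 22 nt (60%, interval 31.3 to 83.2%) it was shorter than the main sequence, in each by 1 base: miRC129, miRC20, miRC185, miRC150, miRC154 and miRC29 paired 22 nt with 21 nt. With each distinct sequence once it was shorter in 5 of 8. It had the same length in the other 4 and was longer in none (0 of 10, which allows up to 27.8%). At 20 nt it was shorter in 2 of 11 members (18.2%, interval 5.14 to 47.7%), miRC24 and miRC184, and equal in 2, miRC49 and miRC92. It was longer in 7 (63.6%, interval 35.4 to 84.8%). Over all candidates it was shorter in 28 of 186 (15.1%, interval 10.6 to 20.9%), equal in 113 and longer in 45 (24.2%, interval 18.6 to 30.8%). For a longer stretch, the interval of the 20-nt members lay above that of all candidates. It overlapped with that of the 14 other candidates of 20 nt, of which 3 had one (21.4%, interval 7.57 to 47.6%). For a shorter stretch, the interval of the 22-nt members lay above that of all candidates and overlapped with that of the 20-nt members. None of the 6 other candidates of 22 nt had a shorter opposite strand (0 of 6), and their interval, which reached 39.0%, overlapped with that of the members.

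The most abundant member of 20 nt had an opposite stretch of equal length, and that of 22 nt had a shorter one. In the precursors below, capitals mark the main sequence, which comes first in both, and the stretch opposite it.
miRC49: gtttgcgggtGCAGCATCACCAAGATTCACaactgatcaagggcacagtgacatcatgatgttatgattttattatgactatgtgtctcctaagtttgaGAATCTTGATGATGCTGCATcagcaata
miRC129: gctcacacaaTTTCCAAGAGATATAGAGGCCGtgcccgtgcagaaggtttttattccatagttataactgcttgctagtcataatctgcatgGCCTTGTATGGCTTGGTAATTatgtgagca
miRC49 lies on the plus strand of scaffold 2 (20686356 to 20686482). Its precursor of 127 nt paired a main sequence of 20 nt with a stretch of 20 nt, left bases 10 and 19 unpaired, and gave 53.1 kcal/mol. miRC129 lies on the plus strand of scaffold 5 (15528358 to 15528479). Its precursor of 122 nt paired 22 nt with 21 nt, left bases 3, 9, 10 and 16 unpaired, and gave 46.8 kcal/mol. No read was listed on the other arm of either. For miRC129 a count of 0 allows up to 3 reads, and for miRC49 no limit is given, because that arm holds a known miRNA.

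Reads on both arms, the direct sign of a processed duplex, were listed for 1 member at each length. This was 1 of 11 at 20 nt, 1 of 10 at 22 nt (interval 1.79 to 40.4%) and 46 of 186 candidates (24.7%). Among the other candidates it was 1 of 14 at 20 nt and 5 of 6 at 22 nt (83.3%, interval 43.6 to 97.0%). The interval of the 22-nt members lay below that of these 6, which had a median of 532 reads on the main sequence. Capitals mark both listed sequences in the precursors.
miRC135: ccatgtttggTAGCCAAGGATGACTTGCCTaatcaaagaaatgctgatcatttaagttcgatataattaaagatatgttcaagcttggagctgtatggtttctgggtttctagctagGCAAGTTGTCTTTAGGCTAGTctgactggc
miRC15: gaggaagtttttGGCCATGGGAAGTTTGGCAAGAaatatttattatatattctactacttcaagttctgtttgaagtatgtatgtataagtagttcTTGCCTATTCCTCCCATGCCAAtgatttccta
miRC135 (scaffold 5, 13336068 to 13336214, minus strand) had 6 reads on its 5p sequence of 20 nt and 2 reads on its 3p sequence of 21 nt. Of the reads listed on both arms, 25.0% were on the lesser arm (interval 7.15 to 59.1%). The 6 reads on the 5p sequence also fit other loci, named below, so this share may not be that of miRC135 alone. For the same reason, reads on both arms are not certain for this locus. miRC15 (scaffold 1, 29646743 to 29646870, plus strand) had 34 reads on its 3p sequence and 1 read on its 5p sequence, both of 22 nt, with 2.86% on the lesser arm (interval 0.506 to 14.5%). In both duplexes each strand ended in an overhang of 2 bases at its 3′ end. The 22-nt sequence of miRC15 lay in a symmetric duplex, with a run of 4 unpaired bases, 6 to 9, and another at base 11.

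Some members belonged to known miRNA families, although the methods state that reads matching known miRNAs were taken out before candidates were searched. The precursors were searched for the 117 conserved sequences of the study, of which only the sequences were used. An exact copy lay in the precursors of 2 members, miRC49 and miRC137, against 20 of 186 candidates. With up to 2 mismatches there were 4 members, miRC135 and miRC80 in addition, against 26 of 186 candidates. Not all such reads were taken out, since 16 of 186 candidates, miRC137 among them, had a main sequence that was identical to a conserved sequence, held one or was held in one, and which reads were removed is not clear. A listed count of 0 on an arm that holds a known miRNA may therefore not measure that arm.

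miRC49 carried miR172, a family that targets APETALA2-type transcription factors in flowering and flower development in Arabidopsis. The known sequences are set here beside the main sequence of miRC49, which has the seed in capitals.
miRC49: gCAGCATCaccaagattcac
gma-miR172b-5p: gtagcatcatcaagattcac
ath-miR172a: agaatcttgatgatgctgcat
The sequence of ath-miR172a, the mature miRNA of Arabidopsis, was present without a mismatch at bases 99 to 119 of the precursor, on the 3′ arm, starting 1 base before the stretch opposite the main sequence. The 410 reads were all on the 5′ arm. That sequence matched the soybean miR172b-5p in 18 of 20 bases, with the changes T2C and T10C, counted from 1 at the 5′ end and with the soybean base first. Base 10 was also 1 of the 2 unpaired bases of the miRC49 main sequence. The candidate most like it was miRC151, whose 5p sequence had 330 reads and matched miRC49 in 18 of 20 bases.

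miRC137 carried miR162, which targets the mRNA of DICER-LIKE1 itself in Arabidopsis. Capitals in the precursor mark the main sequence and the stretch opposite it.
miRC137: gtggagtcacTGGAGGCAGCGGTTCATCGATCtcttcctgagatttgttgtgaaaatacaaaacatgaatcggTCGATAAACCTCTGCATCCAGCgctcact
csi-miR162*: tggaggcagcggttcatcgatc
ath-miR162a: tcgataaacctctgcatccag
The main sequence, with 8 reads, was identical to csi-miR162* of sweet orange in all 22 bases. The mature ath-miR162a was present without a mismatch at bases 74 to 94, beginning at the first base of the stretch opposite the main sequence. The precursor lies on the minus strand of scaffold 5 (16885784 to 16885885). As in miRC49, the listed reads were on the miRNA* side of the hairpin.

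miRC135 carried miR169, a family that targets NF-YA transcription factors. All 20 bases of its main sequence are the first 20 bases of ath-miR169h.
miRC135: tAGCCAAGgatgacttgcct
ath-miR169h: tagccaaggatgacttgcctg
The next base of the precursor differs, as G21A, counted in ath-miR169h with its base first. The 21-nt form that continues with G was the 5p sequence of miRC65, miRC81, miRC82 and miRC102, with 18 reads at each. The 20-nt form listed at miRC135 had 6 reads. All 20 of its bases also begin the 21-nt form, so these 6 reads fit each of those loci and cannot be placed at miRC135. The 5p sequences of miRC104 and miRC106, with 78 reads each, and of miRC105 and miRC107, with 261 reads each, matched it in 18 of 20 bases. miRC135 was thus the 20-nt relative of a larger set of 21-nt loci.

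miRC80 and miRC95 shared a main sequence that mirrors miR171, a family that targets GRAS-type transcription factors of the SCARECROW-LIKE group. Their precursors lie on scaffold 3, that of miRC80 at 21505897 to 21505996 (plus strand) and that of miRC95 at 16557254 to 16557355 (minus strand). Capitals mark the main sequence and the stretch opposite it.
miRC80: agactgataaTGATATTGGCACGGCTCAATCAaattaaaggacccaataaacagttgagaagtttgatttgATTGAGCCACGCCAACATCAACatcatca
miRC95: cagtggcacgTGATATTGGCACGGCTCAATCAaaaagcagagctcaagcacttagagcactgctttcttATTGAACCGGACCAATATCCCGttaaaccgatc
osa-miR171b: tgattgagccgtgccaatatc
Bases 2 to 22 of the main sequence were the exact reverse complement of osa-miR171b of rice, in 21 of 21 bases. The other arm of neither hairpin held that sequence. In miRC80 the arm opposite differed from osa-miR171b by G11A, T12C and T18C, and in miRC95 by G2T, G8A, T12G and G13A, with the rice base first. Against ath-miR171a, miRC80 differed by G11A and T18C only. Outside the shared sequence the precursors had little in common, with 44.0% of bases identical over 100 nt aligned without gaps. Their energies were close, 39.1 kcal/mol in miRC80 and 40.1 kcal/mol in miRC95, but 3 bases of the main sequence were unpaired in miRC80 and 5 in miRC95. The name miRC171 is only a number in the table, and that candidate held no copy of a miR171 sequence with up to 2 mismatches.

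miRC150 and miRC154 were near copies of each other at different places on scaffold 6, from 4577941 to 4578011 and from 9067799 to 9067869, both on the minus strand. Capitals mark the main sequence and the stretch opposite it.
miRC150: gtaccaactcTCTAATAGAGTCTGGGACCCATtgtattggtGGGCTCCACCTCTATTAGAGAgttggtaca
miRC154: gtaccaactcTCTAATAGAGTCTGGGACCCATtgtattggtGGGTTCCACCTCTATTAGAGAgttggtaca
The precursors differed by 1 of 71 bases, C45T, counted from the 5′ end of the precursor with the base of miRC150 first. The change lay in the stretch opposite the main sequence. The deposited structure left bases 11, 12, 16 and 17 of the main sequence unpaired in miRC150 and bases 11 and 12 in miRC154, and the energies were 48.1 and 51.6 kcal/mol. Each precursor held 12 reads, 11 of them on the main sequence, and the counts do not separate the loci.

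Another 2 members resembled candidates of other lengths without matching a conserved sequence. The 3p sequence of miRC24 matched the 3p sequence of miRC44, which had 50 reads, in 15 of 17 overlapping bases. That of miRC66 matched the 3p sequence of miRC181, with 26 reads, in 16 of 19 bases. The remaining 12 members, miRC184, miRC92, miRC152, miRC171, miRC52, miRC8, miRC36, miRC129, miRC15, miRC20, miRC185 and miRC29, each had a main sequence listed at 1 locus and no conserved sequence in the precursor with up to 2 mismatches.

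Another candidate lay within 10000 bp of 3 members, against 24 of 186 candidates. miRC15 lay in a cluster on the plus strand of scaffold 1, with miRC14 at 562 bp, miRC16 at 1437 bp, miRC17 at 1650 bp and miRC13 at 2009 bp. The 5p sequence of miRC16, with 37 reads, shared bases with the 3p sequence of miRC15 when aligned end to end. Their longest common run, 6 bases, was not part of that alignment. It began at base 17 of miRC15 and at base 2 of the miRC16 sequence. The 3p sequences of miRC14 and miRC17 also shared bases with that of miRC15 when aligned end to end, with mismatches between the matching bases. Their longest unbroken common run was 8 bases at the same positions, 10 to 17, marked here in capitals.
miRC15 (34 reads): ttgcctattCCTCCCATgccaa
miRC14 (73 reads): tttccgaaaCCTCCCATtccaa
miRC17 (38 reads): cttcccaaaCCTCCCATtccta
The seeds of all 3 differed. No listed sequence of miRC14, miRC16 or miRC17 reached the limit for related sequences with miRC15. That limit was 16 or more aligned bases with at most 3 mismatches. miRC129 lay 167 bp from miRC128, a 21-nt candidate with 53 reads on the same strand. miRC36 lay 1466 bp from miRC35 on the same strand and 5646 bp from miRC19 on the opposite strand. The main sequences of these neighbours matched those of miRC129 and miRC36 in no alignment of 16 or more bases with at most 3 mismatches.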

How the data were processed

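The small RNA library was made from mixed young leaves, young stems and flower buds of 1 cultivar. The authors trimmed the reads, removed, by their methods, other non-coding RNAs and known miRNAs, ran MIREAP on the peach genome and deposited raw read counts for each precursor and its 5p and 3p sequences, without normalization. Other values deposited by the authors are folding free energies in kcal/mol and the structure of each precursor. The genome version is not given in the sources used here, so no gene annotation was joined and positions are given on scaffolds as deposited, counted from 1. The members and lists were chosen with earlier results of these data known. Each member was named with its count, and sequences were printed by the rule given with them. Shares have 95% Wilson intervals and medians binomial rank intervals (scipy 1.17.1, python 3.11.15). With medians of 10 and 11 reads per member, precision is low. Structures were read with code tested on simulated hairpins, and precursors were refolded with RNAfold of ViennaRNA 2.7.2. Related sequences had at least 16 bases aligned without gaps and at most 3 mismatches. The 3 degradome libraries were not analysed here.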

Additional observations from a re-analysis of the deposited data

How the results depend on the processing

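Of 40 alternatives, 33 left the value within its interval or within 1.5 times. These 33 include the energies per 100 nt, 23.8 at 20 nt and 39.2 at 22 nt. They were set against medians in kcal/mol, 53.1 and 46.4, which is another unit, so they do not count as unchanged. On that scale the order of the lengths turned. The 7 alternatives outside these limits follow. With all candidates of each length kept, the members numbered 25 instead of 11 at 20 nt and 16 instead of 10 at 22 nt. Without the member with the most reads, the totals were 331 reads at 20 nt and 138 reads at 22 nt. Weighted by reads, the share starting with uracil at 20 nt was 4.99%. With up to 2 mismatches, 4 members held a conserved sequence. In RNAfold structures, 1 member of 20 nt had base 10 or 11 unpaired, an alternative chosen after seeing the data, as was counting each distinct sequence once for that value. RNAfold gave the deposited structure for 7 of 21 members and energies within 3.9 kcal/mol. No paired analysis was possible because 1 library has no groups to pair. At 10 reads a count cannot rank the members.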
